A study of Mus musculus with 18 samples.

Results

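Treg identity genes are a set of 10 mouse genes that mark regulatory T cells (Treg), the CD4 lineage that restrains other immune cells. They were chosen by name and were Foxp3, Ikzf2, Ikzf4, Izumo1r, Nrp1, Itgae, Lrrc32, Gpr83, Capg and Swap70. Each name matched 1 Ensembl gene of the deposited count table, so the set was 10 of 55487 genes, of which 30423 had any count. The question was whether libraries labelled Treg carried these genes above libraries labelled CD4.

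The study sequenced messenger RNA of T cells that were sorted from spleens of healthy mice and then stimulated in culture. All cells spent 72 h with antibodies to CD3 on the plate (2 µg/ml) and to CD28 (2 µg/ml) together with 10 ng/ml of IL-2. The 18 libraries form 6 groups of 3, Treg, CD8 and CD4 cells of each genotype. The KO groups carry Foxp3 YFP/cre and Ebi3 -/-, and the WT groups carry Foxp3 YFP/cre alone, so every mouse has YFP/cre in the Foxp3 gene. Ebi3 encodes the chain that IL-27 has in common with IL-35. The sources used here give no age or sorting gate, and they do not say where the YFP/cre insertion lies relative to the 3' tag that was counted. They do not say either whether the replicates of a group are separate mice or cultures. A p-value here therefore speaks of the spread among these libraries, which may be technical.

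In Treg the transcription factor FOXP3 acts with Ikaros-family factors such as Helios and Eos to hold a programme of surface receptors on and cytokine genes such as Il2 off. The receptors include folate receptor 4, neuropilin-1, the integrin CD103, the latent TGF-beta docking protein GARP and the receptor GPR83. Several of these genes are also switched on in conventional T cells after stimulation, and some are used outside T cells, Swap70 in B cells and Capg in macrophages.

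Total counts per library were 841892 to 1089003 in Treg, 1819035 to 2077358 in CD8 and 1358671 to 2255950 in CD4. A floor of 3 counts in a library stood for 2.75 to 3.56 CPM (counts per 1000000 counts of the library) in Treg libraries and for no less than 1.33 CPM in any library. Intervals and floors here cover counting error only. The libraries labelled Treg held transcripts of both coreceptors. Cd4 was at 34.4 to 68.0 CPM in Treg libraries, 0 to 0.509 CPM in CD8 libraries and 100.1 to 156.5 CPM in CD4 libraries. Cd8a was at 24.9 to 46.7 CPM in Treg libraries, 143.2 to 244.4 CPM in CD8 libraries and 0 to 1.69 CPM in CD4 libraries. Cd8b1 was at 33.5 to 47.9 CPM in Treg, 128.4 to 192.0 CPM in CD8 and 1.46 to 11.7 CPM in CD4. Counting noise alone covered the difference between Treg KO replicates 1 and 3 (a chi-square per gene of 0.914) and between Treg WT replicates 1 and 2 (0.923). Each pair was counted as 1 sample in means and SDs, which leaves n = 2 for each Treg genotype. Among the 9 pairs of a Treg KO and a Treg WT library, 4 were as close (0.869 to 0.994) and were kept as separate samples, so Treg libraries may not be independent of each other. CD8 and CD4 pairs within a group differed by 1.502 to 5.301 on this scale.

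The set did not move as 1 block. Set against CD4 libraries, libraries labelled Treg carried Ikzf2 and Swap70 at higher levels, and Ikzf4, Izumo1r, Gpr83, Lrrc32 and Capg at lower levels. Nrp1 did not pass the test, and Foxp3 and Itgae were too low for the test across genes. The test was edgeR's quasi-likelihood test on the mean of both genotypes, with p-values adjusted by Benjamini-Hochberg over 12693 genes and a threshold of 0.05, and 8 of the 10 genes passed its filter on low counts. Of those 8, 2 were higher and 5 lower. Among all genes tested 33.3% were higher and 25.2% lower, 58.4% in all, so a called difference between these libraries is common. Gpr83 passed the filter only through CD4 libraries, and Lrrc32 only through CD8 and CD4 libraries, where they were high. The median log2 fold change of the 8 genes was -0.91, beside 0.08 over all genes. This median and the count of lower genes include Gpr83 and Lrrc32, whose direction the filter favoured, and leave out Itgae, given below. Of the genes that passed the filter with Treg libraries as well, Ikzf2 and Swap70 were higher and Ikzf4, Izumo1r and Capg lower. These markers thus did not follow the Treg label as a set, and the label is used here as a name for 6 libraries. In bulk RNA, fewer cells of a type and less RNA per cell cannot be told apart.

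**Figure D1:**
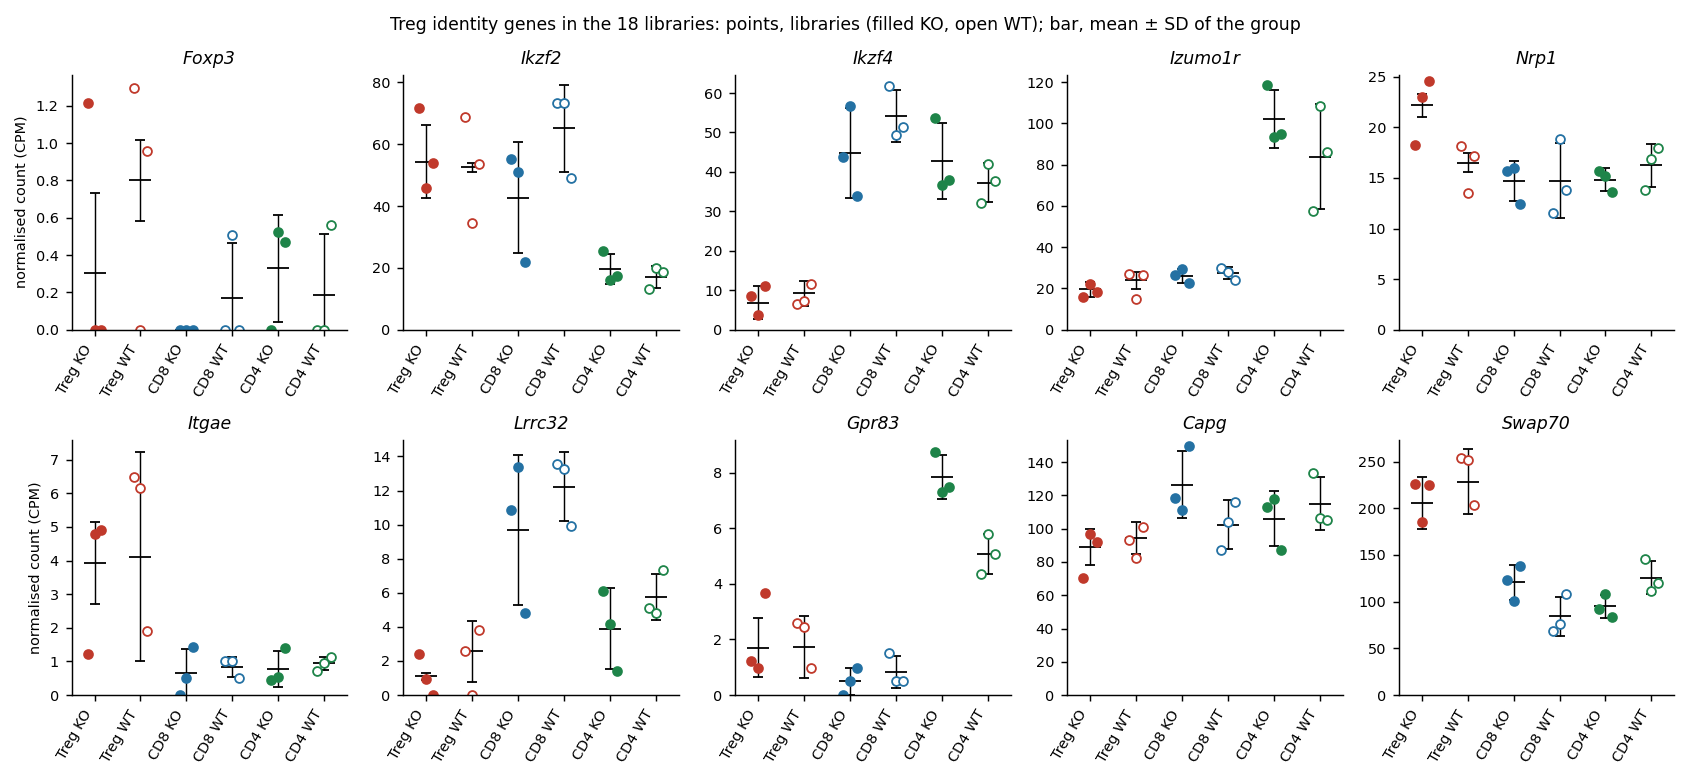
Normalised counts (CPM, linear axes from 0) of the 10 Treg identity genes in each of the 18 libraries, with filled points for KO and open points for WT. The black bar is the mean and SD of the group, cut at 0, with n = 2 in Treg groups because pairs within counting noise of each other make 1 sample, and n = 3 elsewhere. Swap70 stands apart as high in the Treg libraries, while Ikzf4, Izumo1r and Gpr83 lie below every CD4 library there.

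**Figure D2:**
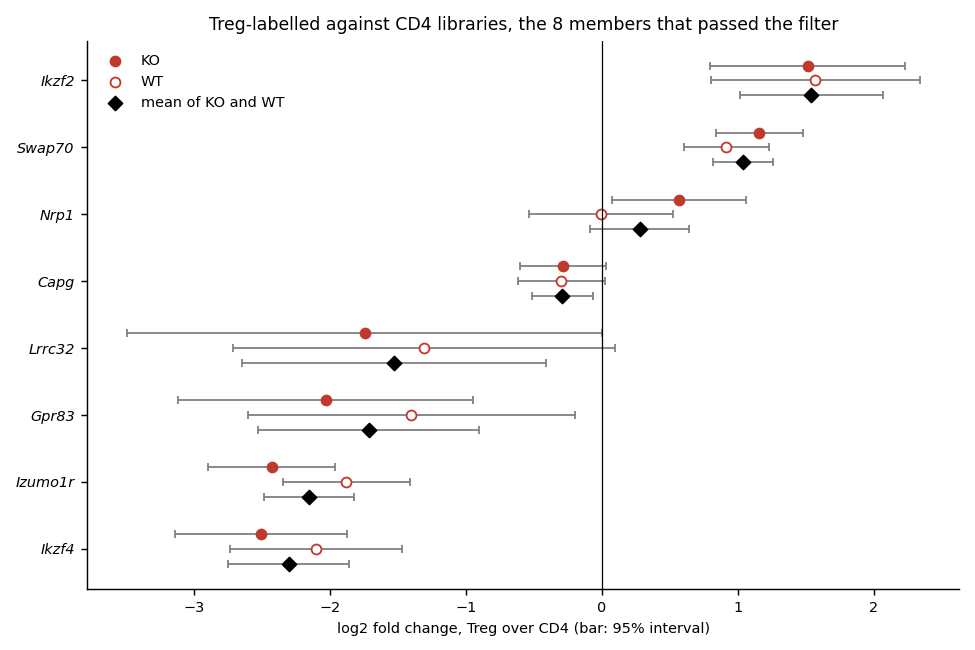
Log2 fold changes of Treg over CD4 libraries for the 8 genes that passed the filter, in KO, in WT and for the mean of both, with 95% intervals from the edgeR fit. Ikzf2 (1.54) and Swap70 (1.04) lie right of 0 in both genotypes, and Izumo1r (-2.15) and Ikzf4 (-2.31) lie left of it in both.

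Foxp3, the gene of the lineage-defining factor (ENSMUSG00000039521, X chromosome, 7573644 to 7595245 on the plus strand of GRCm38), was not detectable above the floor in any library. Its counts were 1, 0 and 0 in Treg KO and 1, 0 and 1 in Treg WT. They were 0, 0 and 0 in CD8 KO and 0, 1 and 0 in CD8 WT. They were 0, 1 and 1 in CD4 KO and 0, 0 and 1 in CD4 WT. The 18 libraries together held 7 Foxp3 counts, and no group stood apart from another. Summed over libraries, this was 0.531 CPM of the unscaled total in Treg (95% exact Poisson interval 0.110 to 1.55), 0.0858 in CD8 (0.00217 to 0.478) and 0.264 in CD4 (0.0545 to 0.773). A two-sided exact permutation test of log2(CPM + 1) over the 6 Treg and 6 CD4 libraries gave p = 0.448, where 924 arrangements allow no p below 0.00216. Counts this low in every library give no check of the Treg label, and whether the YFP/cre insertion changes the 3' tag of Foxp3 was not tested. Ppp1r3f, Ccdc22 and Gm36995 overlap Foxp3 on the opposite strand, and the strand setting of the counting is not given in the sources used here. The same limit holds for Ikzf2 with Gm29114, Ikzf4 with Gm26876, Itgae with Haspin and Swap70 with Gm45515.

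Of the Ikaros-family factors, Ikzf2 was higher and Ikzf4 lower in the libraries labelled Treg. Ikzf2 encodes Helios (ENSMUSG00000025997, chromosome 1, 69531214 to 69687245, minus strand). It had 71.7, 46.0 and 54.0 CPM in Treg KO and 68.7, 34.4 and 53.5 CPM in Treg WT. It had 55.3, 51.0 and 22 CPM in CD8 KO and 73.3, 73.3 and 49.0 CPM in CD8 WT. CD4 libraries had 25.4, 16.2 and 17.3 CPM in KO and 13.1, 19.8 and 18.6 CPM in WT. All 6 Treg libraries lay above all 6 CD4 libraries, and within the range of the CD8 libraries. The means were 53.5 ± 7.04 CPM in Treg (SD, n = 4), 54.0 ± 19.0 CPM in CD8 (SD, n = 6) and 18.4 ± 4.11 CPM in CD4 (SD, n = 6). The log2 fold change of Treg over CD4 was 1.54 (SE 0.25, adjusted p = 3.59e-05 by edgeR), and the call was kept in 31 of 31 alternative analyses.

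Ikzf4 encodes Eos, which works with FOXP3 in silencing genes (ENSMUSG00000002578, chromosome 10, 128630843 to 128645991, minus strand). It had 8.51, 3.83 and 11.1 CPM in Treg KO and 6.48, 7.37 and 11.5 CPM in Treg WT. It had 43.9, 56.7 and 34.0 CPM in CD8 KO and 61.7, 49.4 and 51.4 CPM in CD8 WT. The CD4 values were 53.8, 36.6 and 37.9 CPM in KO and 32.1, 42.0 and 37.7 CPM in WT. Every Treg library lay below every library of the other cells, by a wide margin. The log2 fold change of Treg over CD4 was -2.31 (SE 0.22, adjusted p = 1.45e-10 by edgeR), the largest fall among the 8 genes tested. Ikzf2 and Ikzf4 thus differed in opposite directions between the same libraries, and both calls were kept in 31 of 31 alternatives.

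Izumo1r and Gpr83, which lie next to each other on chromosome 9, were both lower in the libraries labelled Treg and both highest in CD4. Izumo1r encodes folate receptor 4, a surface marker of Treg and of activated or anergic CD4 cells (ENSMUSG00000031933, 14885814 to 14903949, minus strand). Gpr83 encodes a G protein-coupled receptor that mouse Treg carry (ENSMUSG00000031932, 14860210 to 14870789, plus strand). The 2 genes point towards each other across a gap of 15024 bases with 0 annotated genes in it. Their upstream sequence is shown because they are neighbours with the same order between Treg and CD4. For Gpr83 it is the 250 bases before the RefSeq start (GRCm38.p6, chr9:14859960-14860209, plus strand), and for Izumo1r the 68 bases of that window outside any exon of the GENCODE annotation (chr9:14903950-14904017, minus strand, read 5' to 3').
Gpr83: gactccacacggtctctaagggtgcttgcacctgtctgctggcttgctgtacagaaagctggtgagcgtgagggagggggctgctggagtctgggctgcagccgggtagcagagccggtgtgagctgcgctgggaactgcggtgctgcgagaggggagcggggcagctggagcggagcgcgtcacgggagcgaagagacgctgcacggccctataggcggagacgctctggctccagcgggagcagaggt
Izumo1r: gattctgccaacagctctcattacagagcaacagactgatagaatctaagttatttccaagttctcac
Neither sequence held any of the motifs searched on both strands, which were forkhead (TGTTTAC), STAT (TTCNNNGAA), RUNX (TGTGGTT), NFAT (TGGAAAA) and AP-1 (TGANTCA). Among 32817 RefSeq windows of 250 bases, 3.16% hold the forkhead, 7.01% the STAT, 4.39% the RUNX, 5.92% the NFAT and 6.75% the AP-1 letters. No match says only that the letters are absent from the window. Such windows were matched for 6 of the 10 genes, Foxp3, Izumo1r, Nrp1, Gpr83, Capg and Swap70.

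Izumo1r had 15.8, 22 and 18.4 CPM in Treg KO and 27.2, 14.8 and 26.8 CPM in Treg WT. It had 26.6, 29.4 and 22.5 CPM in CD8 KO and 30.1, 28.0 and 24.2 CPM in CD8 WT. CD4 libraries had 118.5, 93.6 and 95 CPM in KO and 57.6, 108.2 and 86.1 CPM in WT. The CD4 libraries stood apart from all the others, and Treg overlapped CD8. The log2 fold change of Treg over CD4 was -2.15 (SE 0.16, adjusted p = 1.82e-12 by edgeR), and the call was kept in 31 of 31 alternatives.

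Gpr83 was counted sparsely outside CD4. It had 1.22, 0.957 and 3.68 CPM in Treg KO and 2.59, 2.46 and 0.956 CPM in Treg WT, which is 1 to 3 counts in each library. It had 0, 0.515 and 0.958 CPM in CD8 KO and 1.51, 0.509 and 0.494 CPM in CD8 WT. In CD4 it had 8.75, 7.32 and 7.49 CPM in KO and 4.37, 5.80 and 5.06 CPM in WT. All CD4 libraries lay above all the others. Summed counts were 10 in Treg, 8 in CD8 and 77 in CD4, or 1.77 CPM of the unscaled total in Treg (95% exact Poisson interval 0.849 to 3.26), 0.686 in CD8 (0.296 to 1.35) and 6.79 in CD4 (5.36 to 8.48). The fitted log2 fold change of Treg over CD4 was -1.72 (SE 0.40, adjusted p = 0.000426 by edgeR), and the call was kept in the 29 alternatives that tested the gene.

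The surface proteins Nrp1, Itgae and Lrrc32 showed 3 different patterns. Nrp1 encodes neuropilin-1, a semaphorin receptor used to tell thymus-derived Treg apart (ENSMUSG00000025810, chromosome 8, 128358604 to 128503363, plus strand). It had 18.2, 23.0 and 24.6 CPM in Treg KO and 18.1, 13.5 and 17.2 CPM in Treg WT. It had 15.7, 16.0 and 12.5 CPM in CD8 KO and 11.5, 18.8 and 13.8 CPM in CD8 WT. The CD4 values were 15.7, 15.2 and 13.6 CPM in KO and 13.8, 16.9 and 18 CPM in WT. The Treg libraries overlapped the CD4 libraries and the CD8 libraries. The log2 fold change of Treg over CD4 was 0.28 (SE 0.18, 95% interval -0.09 to 0.64, adjusted p = 0.183 by edgeR), so a rise of more than 0.64 lies outside the interval. With T cell scaling, in which the summed counts of 6 T cell receptor and CD3 genes serve as library size, Nrp1 passed at 0.62 (adjusted p = 0.0138). That scaling moved the median of all genes to 0.41, and Nrp1 stood 0.21 above it, beside 0.20 above the median in the main analysis. By genotype and with the main scaling, the log2 fold change was 0.57 in KO (adjusted p = 0.0534) and -0.01 in WT (adjusted p = 0.985), and the difference between these effects was 0.57 (SE 0.35, adjusted p = 0.988 by edgeR). In KO, Nrp1 did not pass in 27 of 31 alternatives. It passed there as higher with T cell scaling, with limma-voom and with the hemoglobin level as a covariate. It also passed without Treg KO replicate 1 (log2 0.67, adjusted p = 0.0485 by edgeR). Stroma and endothelium can also carry Nrp1 and Lrrc32. Their 7 markers summed to 88.5 to 134.0 CPM in Treg, 40.65 to 80.5 CPM in CD8 and 46.8 to 96.2 CPM in CD4. Pecam1, which made up most of this sum, was higher in Treg than in CD4 (log2 fold change 0.66, adjusted p = 0.000156 by edgeR). Of the 7, 3 had 3 or fewer counts in each Treg library. The part of these transcripts in the Nrp1 and Lrrc32 results was not tested.

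Itgae encodes the alpha chain of CD103, the receptor for E-cadherin, and was counted at or near the floor (ENSMUSG00000005947, chromosome 11, 73090583 to 73147446, plus strand). Its counts were 1, 5 and 4 in Treg KO and 5, 5 and 2 in Treg WT. They were 0, 1 and 3 in CD8 KO and 2, 2 and 1 in CD8 WT, and 1, 1 and 3 in CD4 KO and 1, 2 and 2 in CD4 WT. The Treg libraries held 22 of the 41 counts of the gene although their totals were the lowest. Summed over libraries, this was 3.90 CPM of the unscaled total in Treg (95% exact Poisson interval 2.44 to 5.90), 0.772 in CD8 (0.353 to 1.47) and 0.881 in CD4 (0.423 to 1.62). The mean of log2(CPM + 1) was 2.25 in Treg and 0.87 in CD4, a difference of 1.38 (two-sided exact permutation test over 6 and 6 libraries, p = 0.00433, smallest possible 0.00216). With the noise-level pairs counted as 1 sample the exact permutation p was 0.00952 (4 and 6 samples, smallest possible 0.00476). The libraries still overlapped, since Treg KO replicate 1 (1.22 CPM) lay below CD4 KO replicate 3 (1.40 CPM). Some dendritic cells also carry CD103, and their 8 markers did not move as 1 block. Flt3 was at 0 to 6.14 CPM in Treg, 0 to 0.515 CPM in CD8 and 0 to 0.729 CPM in CD4, and Itgax at 0.957 to 4.91 CPM in Treg, 0 to 2.71 CPM in CD8 and 0 to 1.46 CPM in CD4, so both reached their highest values in Treg. Xcr1, Clec9a and Siglech had 3 or fewer counts in each Treg library. Of the 3 markers that passed the filter, Bst2 (log2 fold change -0.80) and Batf3 (-1.64), which are not confined to dendritic cells, were lower in Treg than in CD4, and Zbtb46 was at 0.74 (adjusted p = 0.0897 by edgeR). The summed level of all 8 was 38.1 to 71.7 CPM in Treg, 57.0 to 176.7 CPM in CD8 and 69.5 to 89.4 CPM in CD4, most of it from Bst2 and Batf3. The part of dendritic transcripts in the Itgae counts was not tested.

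Lrrc32 encodes GARP, which holds latent TGF-beta on the surface of activated Treg (ENSMUSG00000090958, chromosome 7, 98489283 to 98502181, plus strand). It had 2.43, 0.957 and 0 CPM in Treg KO and 2.59, 0 and 3.82 CPM in Treg WT, which is 0 to 4 counts a library. It had 10.8, 13.4 and 4.79 CPM in CD8 KO and 13.6, 13.2 and 9.89 CPM in CD8 WT. The CD4 values were 6.12, 4.18 and 1.40 CPM in KO and 5.10, 4.83 and 7.31 CPM in WT. All Treg libraries lay below all CD8 libraries, while CD4 KO replicate 3 fell among the Treg values. Summed counts gave 1.59 CPM of the unscaled total in Treg (95% exact Poisson interval 0.729 to 3.03), 11.1 in CD8 (9.24 to 13.1) and 4.85 in CD4 (3.65 to 6.31). The fitted log2 fold change of Treg over CD4 was -1.53 (SE 0.55, adjusted p = 0.0176 by edgeR). The call was lost without CD4 KO replicate 1 (adjusted p = 0.0587), with the hemoglobin level (0.0600) or the B cell marker level (0.0589) as a covariate, and with T cell scaling (0.0530). Platelets also carry GARP, and their 7 markers did not move as 1 block. Itga2b and Gp9 were at 0 in all Treg libraries, while Gp1bb and Treml1 reached their highest values there (4.86 and 1.23 CPM). Of the 7, 5 had 3 or fewer counts in each Treg library. The summed level of the 7 was 14.8 to 23.9 CPM in Treg, 13.9 to 26 CPM in CD8 and 20.9 to 32.9 CPM in CD4, and their part in the result was not tested.

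Capg and Swap70, which encode an actin-capping protein and an actin-binding signalling protein, differed in opposite directions. Capg (ENSMUSG00000056737, chromosome 6, 72544391 to 72562983, plus strand) had 70.5, 96.7 and 92.1 CPM in Treg KO and 93.3, 82.3 and 101.3 CPM in Treg WT. It had 118.7, 111.3 and 149.5 CPM in CD8 KO and 87.3, 103.9 and 116.2 CPM in CD8 WT. In CD4 it had 112.8, 118.1 and 87.5 CPM in KO and 133.3, 106.3 and 105.2 CPM in WT. The groups overlapped, and the log2 fold change of Treg over CD4 was small at -0.29 (SE 0.11, adjusted p = 0.023 by edgeR). The call was lost without Treg KO replicate 1 (adjusted p = 0.0765), without Treg WT replicate 2 (0.0580) and with the noise-level pairs summed (0.0550). With T cell scaling the value turned to 0.01. Relative to the median of all genes Capg stood at -0.41 under that scaling and at -0.37 in the main analysis. The summed level of 10 macrophage and monocyte markers was 530.0 to 627.1 CPM in Treg, 351.3 to 775.5 CPM in CD8 and 446.5 to 776.7 CPM in CD4, most of it from Ctss, which B cells express as well. Of the 6 markers tested against CD4, 2 were higher in Treg and 0 lower, Csf1r (2.46 to 13.4 CPM in Treg and 0 to 1.69 CPM in CD4, fitted log2 fold change 2.83, adjusted p = 1.84e-05 by edgeR) and Lyz2 (7.37 to 15.6 CPM in Treg and 2.92 to 8.36 CPM in CD4, 1.23, adjusted p = 0.000685 by edgeR). The share of higher markers, 33.3%, equals the 33.3% of all genes that were higher, and 25.2% of all genes were lower. Csf1r passed the filter only through Treg libraries, where it was high, so this share includes a gene whose direction the filter favoured. Adgre1, below the filter, was at 2.46 to 9.07 CPM in Treg, 0 to 0.958 CPM in CD8 and 0 to 1.45 CPM in CD4. The part of these transcripts in the Capg result was not tested.

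Swap70 encodes a signalling protein best known from B cells (ENSMUSG00000031015, chromosome 7, 110221711 to 110283506, plus strand). It had 226.1, 185.7 and 224.7 CPM in Treg KO and 254.0, 251.9 and 203.6 CPM in Treg WT. It had 123.0, 100.4 and 138.0 CPM in CD8 KO and 68.3, 75.9 and 108.3 CPM in CD8 WT. In CD4 it had 92.3, 108.7 and 83.8 CPM in KO and 145.7, 111.6 and 119.8 CPM in WT. All 6 Treg libraries lay above all 12 others, with means of 216.9 ± 29.0 CPM in Treg (SD, n = 4), 102.3 ± 26.8 CPM in CD8 (SD, n = 6) and 110.3 ± 21.8 CPM in CD4 (SD, n = 6). The log2 fold change of Treg over CD4 was 1.04 (SE 0.11, adjusted p = 5.15e-09 by edgeR), and the call was kept in 31 of 31 alternatives.
The 250 bases before its RefSeq start (GRCm38.p6, chr7:110221453-110221702, plus strand) are shown because Swap70 was the only gene of the set above both other cell types with every library apart. They held 1 forkhead match, in capitals, whose first base lies 107 bases before the start, and none of the other motifs. A match is a description of the letters and was not tested as a binding site.
Swap70: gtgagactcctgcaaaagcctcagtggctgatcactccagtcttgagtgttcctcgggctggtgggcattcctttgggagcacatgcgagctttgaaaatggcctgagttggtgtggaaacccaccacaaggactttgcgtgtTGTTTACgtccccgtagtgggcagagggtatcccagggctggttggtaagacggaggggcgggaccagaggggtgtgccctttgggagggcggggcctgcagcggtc

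B cell transcripts were counted in every library, all 12 markers examined among them, and their levels stand beside each Swap70 value. The summed level of the 12 was 5173 to 5606 CPM in Treg (median 5476), 2764 to 5962 CPM in CD8 (median 4537) and 3306 to 6756 CPM in CD4 (median 4147). Treg lay inside the range of the other cells only through CD8 KO replicate 3 (5962 CPM) and CD4 WT replicate 1 (6756 CPM). Every other CD8 and CD4 library lay below every Treg library. Of the 12 markers 6 were higher (50%) and 0 lower in Treg than in CD4 by edgeR, beside 33.3% and 25.2% of all genes. Of the 6, 3 were higher by more than Swap70 (1.04). These 3 were Fcer2a (log2 fold change 1.98), Cd79a (1.71) and Ebf1 (1.29, with 292.4 to 364.6 CPM in Treg and 97.3 to 194.5 CPM in CD4), and the other 3 were Pax5 (0.76), Ighd (0.66) and Cd79b (0.45). Ighm, at 0.22 (adjusted p = 0.229), made up 47.2% to 48.8% of the marker counts in Treg, 49.3% to 52.9% in CD8 and 49.6% to 52.3% in CD4. Per 1000 B cell marker counts, Swap70 had 33.1 to 49.1 counts in Treg (median 41.5), 22.7 to 25.2 in CD8 (median 23.4) and 21.6 to 29.8 in CD4 (median 24.8). Without Ighm the ratios were 64.5 to 95.7 in Treg, 46 to 53.5 in CD8 and 42.8 to 61.4 in CD4. On both sums the Treg ratios were all above the others, but the ratio depends on the marker. Per count of Ebf1, Swap70 had 0.616 to 0.797 counts in Treg (median 0.704), 0.695 to 0.915 in CD8 (median 0.766) and 0.749 to 0.913 in CD4 (median 0.848), and per count of Fcer2a 3.53 to 5.72 in Treg, 5.76 to 8.13 in CD8 and 6.39 to 10.1 in CD4. Whether Swap70 stood above B cell transcripts in Treg thus turned on the marker, and the part of these transcripts in the Swap70 result was not tested. With the summed B cell marker level as a covariate, an alternative added after the data had been seen, the log2 fold change of Swap70 in Treg over CD4 was 0.81 (adjusted p = 3.61e-11 by edgeR).

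Within CD8 and within CD4, Swap70 was higher in libraries with more B cell transcripts. Over the 6 CD8 libraries Pearson's r was 0.99 (exact permutation p = 0.00139, adjusted p = 0.0167) and Spearman's rho 1.0 (exact permutation p = 0.00278, adjusted p = 0.0334). Leaving out the 2 libraries farthest from the median gave r = 0.94. Over the 6 CD4 libraries r was 0.91 (exact permutation p = 0.0139, adjusted p = 0.0834) and rho 0.89 (exact permutation p = 0.0333, adjusted p = 0.0888). Leaving out the 2 farthest gave r = 0.75. Capg followed the B cell markers over the CD8 libraries as well, with r = 0.95 (exact permutation p = 0.00139, adjusted p = 0.0167) and rho = 1.0 (exact permutation p = 0.00278, adjusted p = 0.0334), and 0.98 for r with the 2 farthest left out. Izumo1r went the other way over the CD4 libraries, with r = -0.95 (exact permutation p = 0.00833, adjusted p = 0.0666) and rho = -0.94 (exact permutation p = 0.0167, adjusted p = 0.0802), and -0.66 for r with the 2 farthest left out. Adjusted values cover the 24 relations computed, 8 genes in 3 cell types, which were chosen after the values had been seen. Over the 6 Treg libraries Swap70 went the opposite way, with r = -0.79 (exact permutation p = 0.0542, adjusted p = 0.13) and rho = -0.94 (exact permutation p = 0.0167, adjusted p = 0.0802), and -0.96 for r with the 2 farthest left out. These 6 libraries make 4 samples, so their p-values are too small.

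**Figure D3:**
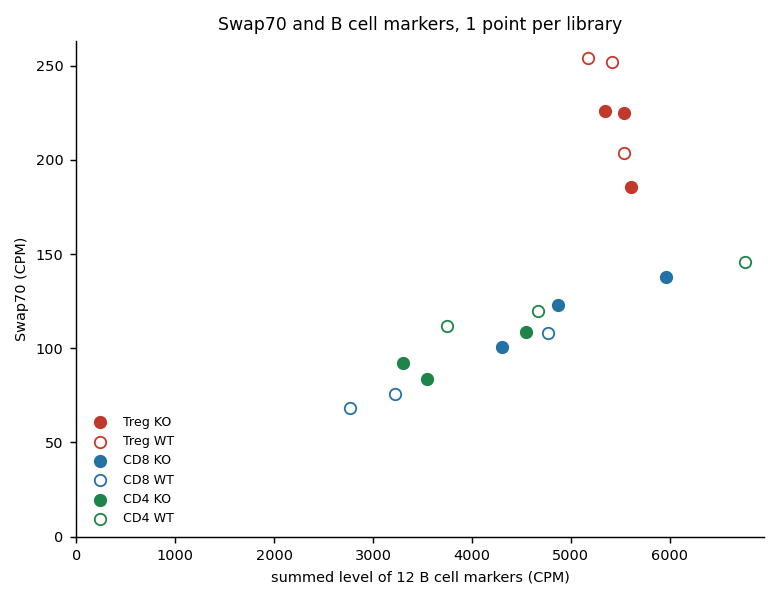
Swap70 level against the summed level of 12 B cell markers (both in CPM, linear axes from 0), with 1 point per library, filled for KO and open for WT. The CD8 and CD4 libraries rise together along 1 band, and the Treg libraries, between 185.7 and 254.0 CPM of Swap70, lie above it, where Ighm makes up 47.2% to 52.9% of the marker counts.

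The order of the cell types differed from gene to gene. By mean CPM, Swap70, Itgae and Nrp1 were highest in Treg, Ikzf2, Ikzf4, Lrrc32 and Capg in CD8, and Izumo1r and Gpr83 in CD4. Foxp3, with at most 1 count a library, was given no order. Treg was lowest for Ikzf4, Izumo1r, Lrrc32 and Capg. Neighbours in these orders that the test did not separate were Treg and CD8 for Ikzf2 and Izumo1r, CD8 and CD4 for Ikzf4, Capg and Swap70, and all 3 cell types for Nrp1. Libraries that were entirely apart between Treg and CD4 were found for 2 genes on the high side, Ikzf2 and Swap70, and for 3 on the low side, Ikzf4, Izumo1r and Gpr83. Over all genes tested this was so for 21% on the high side and 14.6% on the low side, and Gpr83 passed the filter only through CD4 libraries.

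Treg and CD4 libraries were also compared within each genotype. In KO, Ikzf2 (log2 fold change 1.51, adjusted p = 0.0013) and Swap70 (1.16, adjusted p = 7.74e-07) were higher and Ikzf4 (-2.51, adjusted p = 7.27e-08), Izumo1r (-2.43, adjusted p = 9.41e-10) and Gpr83 (-2.03, adjusted p = 0.00203) lower by edgeR. There 27.8% of all genes were higher and 20.3% lower, 48% in all. In WT, Ikzf2 (1.57, adjusted p = 0.00194) and Swap70 (0.91, adjusted p = 2.11e-05) were higher and Ikzf4 (-2.10, adjusted p = 2.11e-06) and Izumo1r (-1.88, adjusted p = 1.05e-07) lower by edgeR. There 24.8% of all genes were higher and 18.2% lower, 43% in all. Gpr83 was at -1.40 in WT (adjusted p = 0.0545) and passed there without CD4 WT replicate 1 (0.048) or CD8 KO replicate 1 (0.0491). Lrrc32 was at -1.75 in KO (adjusted p = 0.0935) and -1.31 in WT (adjusted p = 0.126), and Capg at -0.29 in KO (adjusted p = 0.132) and -0.30 in WT (adjusted p = 0.123). Without CD4 KO replicate 3 both passed in KO, Lrrc32 at -2.16 (adjusted p = 0.0281) and Capg at -0.42 (adjusted p = 0.0334). The test of the difference itself, KO minus WT of the Treg effect over CD4, called 0 of the 8 genes and 0 genes in all by edgeR, with 0 of the 8 and 550 in all at an unadjusted p under 0.05, and DESeq2 and limma-voom called 0 of the 8. The intervals of that difference were wide, at -0.15 to 1.30 for Nrp1, -1.28 to 0.18 for Izumo1r and -2.50 to 1.24 for Gpr83 (95%), so effects of unequal size in KO and WT lie within them.

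CD8 cells served as a further comparison. Set against CD8 libraries, libraries labelled Treg were higher in Swap70 (log2 fold change 1.15, adjusted p = 8.06e-10) and lower in Ikzf4 (-2.60, adjusted p = 5.18e-12), Lrrc32 (-2.70, adjusted p = 8.92e-06) and Capg (-0.34, adjusted p = 0.00776) by edgeR. With T cell scaling the Capg value turned to 0.02, where the median of all genes was 0.46. Gpr83 also passed as higher (adjusted p = 0.0469), on 1 to 3 counts a library in Treg and 0 to 3 in CD8. That call was lost in 13 of 29 alternatives, among them 7 that leave out 1 library (Treg KO replicate 3, Treg WT replicate 1 or 2, CD8 KO replicate 1 or 2, CD8 WT replicate 2 or 3), with adjusted p-values up to 0.245. Ikzf2 was at 0.05 (95% interval -0.41 to 0.50, adjusted p = 0.864), Nrp1 at 0.37 (adjusted p = 0.0792) and Izumo1r at -0.35 (adjusted p = 0.111). So 2 genes were higher and 3 lower, where 33.9% of all genes were higher and 26.2% lower, 60.1% in all. Among the lower ones, Lrrc32 passed the filter only through CD8 and CD4 libraries, where it was high. Libraries were entirely apart for Swap70 on the high side (22.2% of all genes) and for Ikzf4 and Lrrc32 on the low side (16% of all genes).

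The conventional cells also differed in these genes. CD8 libraries were higher than CD4 libraries in Ikzf2 (log2 fold change 1.49, adjusted p = 0.000204) and Lrrc32 (1.17, adjusted p = 0.00751), and lower in Gpr83 (-3.14, adjusted p = 4.34e-07) and Izumo1r (-1.80, adjusted p = 7.59e-12) by edgeR. That is 2 of 8 higher and 2 of 8 lower, where 3.25% of all genes were higher and 2.68% lower, 5.92% in all. Gpr83 passed the filter only through CD4 libraries, and Lrrc32 only through CD8 and CD4 libraries. For these genes neither the calls nor libraries lying apart can be weighed against shares of all genes. Ikzf4 (0.29, adjusted p = 0.258), Capg (0.05, adjusted p = 0.908), Swap70 (-0.11, adjusted p = 0.73) and Nrp1 (-0.09, adjusted p = 0.899) did not pass. CD8 and CD4 libraries were entirely apart for Izumo1r and Gpr83, both on the low side, where 1.32% of all genes lay, and for none on the high side, where 1.64% lay. The Treg and CD8 comparisons share the CD4 libraries, and each value stands for its own comparison.

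Between Ebi3 KO and WT libraries none of the 8 genes passed the threshold in any cell type (edgeR). In Treg, KO against WT, edgeR called 0 of the 8 and 0 of all genes, with 0 of the 8 and 274 of all genes at an unadjusted p under 0.05. The largest difference was that of Lrrc32 at -0.97 (95% interval -3.22 to 1.27), which rests on 3 counts in KO and 6 in WT. Swap70 was at -0.16 (95% interval -0.47 to 0.16) and Ikzf2 at 0.12 (-0.59 to 0.83). In CD8, edgeR called 0 of the 8, where 0.165% of all genes passed (0.0551% higher and 0.11% lower), and 3 of the 8 had an unadjusted p under 0.05. These were Swap70 (log2 fold change 0.52, adjusted p = 0.108, and 0.00557 without CD8 WT replicate 3), Ikzf2 (-0.62, adjusted p = 0.265) and Capg (0.31, adjusted p = 0.259). In CD4, edgeR called 0 of the 8 and 0 of all genes, with 1 of the 8, Swap70 (-0.40, adjusted p = 0.657), and 929 of all genes at an unadjusted p under 0.05. DESeq2 and limma-voom called 0 of the 8 in all 3 cell types. In CD8, however, DESeq2 gave no adjusted p for Ikzf2, Ikzf4, Nrp1, Lrrc32 and Gpr83, so it did not judge them there.

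Of the 8 genes tested, Swap70 had the smallest p-value by edgeR for a difference of the genotype effect between CD4 and CD8. It averaged 120.5 ± 18.9 CPM in CD8 KO and 84.1 ± 21.3 CPM in CD8 WT, and 94.9 ± 12.7 CPM in CD4 KO and 125.7 ± 17.8 CPM in CD4 WT (SD, n = 3 each). The KO mean was thus the higher one in CD8, where the libraries overlapped, and the lower one in CD4, and neither effect passed the threshold by edgeR. The difference between the effects, CD4 minus CD8, was -0.92 (SE 0.22, adjusted p = 0.065 by edgeR, 0.000235 before adjustment). Gpr83, counted sparsely in CD8, had a larger difference with a wide error (1.24, SE 0.96, adjusted p = 0.549 by edgeR). No gene passed that test by edgeR, and 2269 had an unadjusted p under 0.05. DESeq2 called Swap70 (adjusted p = 0.0392) and limma-voom did not (0.0806). It passed without CD4 KO replicate 2 (adjusted p = 0.0331), CD4 WT replicate 2 (0.0178), CD8 KO replicate 2 (0.0293) or CD8 WT replicate 3 (0.00372). The 12 B cell markers had a median log2 fold change of 0.44 in CD8 and -0.40 in CD4 between the same libraries. With the B cell marker level as a covariate, added after the data had been seen, the Swap70 difference was -0.35 (adjusted p = 0.961 by edgeR). The part of B cell transcripts in the genotype difference of Swap70 was not tested.

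The genes whose levels followed each member most closely over the 18 libraries were found by Pearson's r of log2 CPM. They are a description, since libraries share groups and cell types. Swap70 was closest to Pik3ap1 (r = 0.984), the adaptor BCAP of B cell receptor signalling, Klhl24 (0.98) and Ebf1 (0.979), a B cell transcription factor that is among the 12 markers. Ikzf4 was closest to Cacybp (0.98), Banf1 (0.98) and Ptpn2 (0.977), a phosphatase that dampens cytokine signalling. Izumo1r was closest to Cpd (0.961), Ckb (0.955) and Npc2 (0.938), and Ikzf2 to Saraf (0.897), a regulator of store-operated calcium entry, Il7r (0.873), the IL-7 receptor, and Dennd4a (0.871). Gpr83 was closest to Jak2 (0.9), a cytokine receptor kinase, Tgm2 (0.899) and Dclk1 (0.878), and Lrrc32 to Timm9 (0.891), Spata24 (0.883) and Batf3 (0.874). Capg was closest to Tmc3 (0.881), Ahnak (0.865) and Prps2 (0.863), and among the genes closest to Nrp1 were Ezh1 (0.789) and Hdac6 (0.782).

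Other genes of the Treg programme were counted in 5 lists. Of 35 partners and regulators of Foxp3, all tested, 11 were higher (31.4%) and 14 lower (40%) in Treg than in CD4 by edgeR, with a median log2 fold change of 0.07. Over all genes tested these shares were 33.3% and 25.2%, so the share of higher genes was near that of all genes. Highest were Bach2, a repressor of effector differentiation (180.1 to 215.1 CPM in Treg and 94.0 to 121.8 CPM in CD4, log2 fold change 0.88), Kat5 (0.84) and the NF-kappaB subunit Rel (0.78). Lowest were Tbx21, the Th1 factor T-bet (2.43 to 9.82 CPM in Treg and 28.4 to 67.9 CPM in CD4, -2.59), the Th2 factor Gata3 (-2.20) and Nr4a3, induced by T cell receptor signals (-1.96). Of 22 receptors that Treg share with activated T cells 17 were tested, 4 were higher (23.5%) and 11 lower (64.7%), with a median of -1.28. Highest were Cd27 (1.04), the ectonucleotidase CD73 gene Nt5e (0.75) and Cd83 (0.62). Lowest were the OX40 gene Tnfrsf4 (33.2 to 50.5 CPM in Treg and 212.8 to 488.5 CPM in CD4, -3.09), Ccr4 (-2.62) and the high-affinity IL-2 receptor chain Il2ra (85.1 to 189.2 CPM in Treg and 361.4 to 763.2 CPM in CD4, -2.19).

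Of 12 suppressive effectors 10 were tested, 3 were higher (30%) and 4 lower (40%), beside 33.3% and 25.2% of all genes, with a median of -0.31. Itgb8, the integrin chain that activates TGF-beta, had 2.46 to 7.78 CPM in Treg and 0 to 0.967 CPM in CD4 (fitted log2 fold change 3.40), and Tgfb1 (0.70) and Nrros (0.33) were higher too. Itgb8 passed the filter only through Treg libraries, where it was high. The 3 higher genes thus include 1 whose direction the filter favoured. Gzmb, granzyme B (-1.45), Lgals1, galectin-1 (-1.01), and Pdcd1lg2, PD-L2 (-0.81), were lower. Of 24 further signature genes 23 were tested, 4 were higher (17.4%) and 14 lower (60.9%), with a median of -0.73. Ccr6 had 43.0 to 88.1 CPM in Treg and 8.36 to 15.3 CPM in CD4 (2.62), and Selp, P-selectin (2.45), was higher too. Penk (-2.93), Dusp4 (-2.48) and Rgs1 (-2.14) were lower. Of 16 genes that FOXP3 keeps low 14 were tested, 9 were higher (64.3%) and 3 lower (21.4%), with a median of 0.55. Sidt1 (1.78), Ifng (31.6 to 56.5 CPM in Treg and 7.87 to 27.5 CPM in CD4, 1.48) and Igfbp4 (1.44) were higher. Il2 (0 to 2.46 CPM in Treg and 3.64 to 13.1 CPM in CD4, fitted -3.55), Dapl1 (-1.43) and Cd40lg, CD40 ligand (-0.54), were lower. Il2 passed the filter only through CD4 libraries, where it was high, so its direction was favoured as well. Ifng was at 418.7 to 665.0 CPM in the CD8 libraries, and the CD8 transcripts of the Treg libraries are given above. Each named gene had an adjusted p of at most 0.0186.

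**Figure D4:**
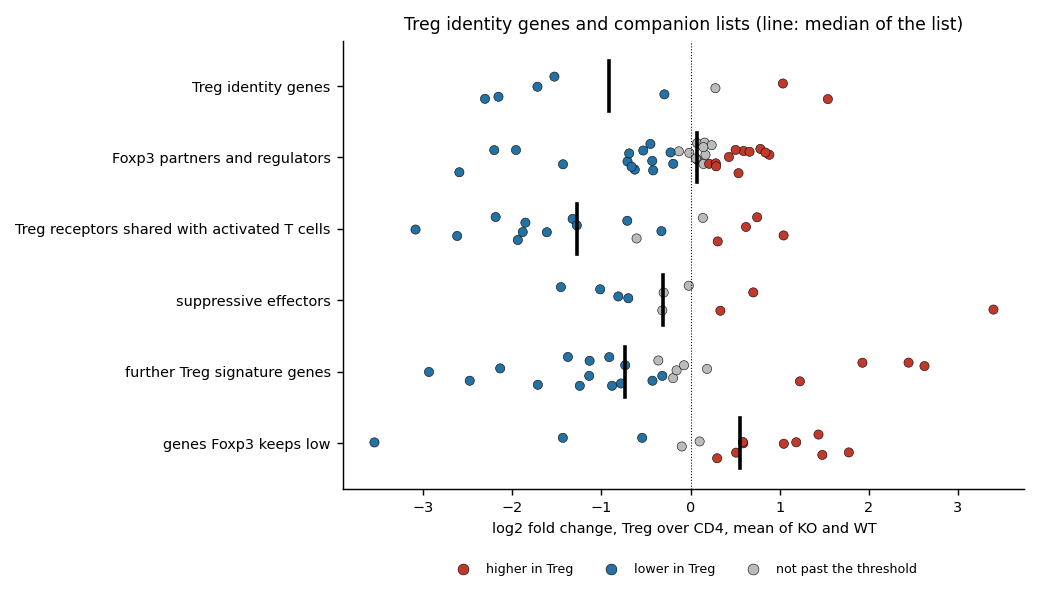
Log2 fold changes of Treg over CD4 libraries (mean of both genotypes) for the Treg identity genes and the 5 further lists, with 1 point per tested gene, red for higher, blue for lower and grey for not past the threshold. The black line is the median of the list, lowest for the receptors shared with activated T cells (-1.28) and highest for the genes that FOXP3 keeps low (0.55).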

How the data were processed

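QuantSeq 3' FWD libraries, which read the 3' end of polyadenylated RNA, were made from 500 ng of total RNA with unique molecular identifiers, per the labels' protocols. The authors deposited whole-number counts for each Ensembl gene without normalisation. The submitters' processing notes name STAR 2.5.3a and cutadapt 2.10, UMI-tools 1.0.0 and FastQC, Subread 2.0.0 with featureCounts, and the build GRCm38 (mm10). For their order, the annotation release, the strand setting and the handling of reads with several alignments, nothing is stated. Since a 3' tag sees a transcript near its end alone, levels of different genes are not compared. Gene names and positions came from GENCODE M21 (55141 of 55487 genes had a symbol), upstream sequences from RefSeq (GRCm38.p6). The table has 0 unused columns.

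Counts were fitted in R 4.3.3 with edgeR 4.0.16 over all 18 libraries, with filterByExpr at a minimum count of 10, TMM scaling, glmQLFit (robust) on the 6 group means, glmQLFTest and a threshold of 0.05. CPM uses TMM-scaled library sizes, and log2 CPM a prior count of 2. Genes below the filter were tested by exact permutation of log2(CPM + 1), counts of 3 or fewer being at or under the floor. Steps were tested on simulated data. Replicate numbers were checked for pairing (45 pairs of libraries with 1 number, correlations -0.34 to 0.31, 3 over 0.1) and do not pair the samples. Alternatives were other scalings, filters, DESeq2 1.42.0, limma-voom (limma 3.58.1), a fold change over 1.5, only the libraries compared, noise-level pairs summed, a replicate block, hemoglobin or B cell markers as covariates, and leaving out each library. The 10 genes, the lists and the markers were chosen with earlier results of these data known, and the B cell covariate, the B cell ratios and the pairs counted as 1 sample below the filter were added after seeing the data. All 10 genes are named, as are the 3 largest called rises and falls of each list and the 3 genes most like each member among 8973 named protein-coding genes whose log2 CPM averaged 3 or more. Of the genes this rule picks, 2 are not reported here.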

Additional observations from a re-analysis of the deposited data

How the results depend on the processing

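Ikzf2, Swap70, Ikzf4 and Izumo1r kept their Treg against CD4 calls in all 31 alternatives, with log2 fold changes of 1.38 to 1.97, 0.81 to 1.37, -2.48 to -1.96 and -2.32 to -1.81. Of the count of 5 genes lower in Treg than in CD4, 3 were left with T cell scaling, a minimum count of 30, a fold change over 1.5 or only the libraries compared, and 4 to 5 when 1 library was left out, with 2 to 3 higher (2 with all libraries). Lower genes in WT (2) were 4 with scaling by total count and 2 to 3 without 1 library. In KO, 5 were lower in place of 3 without a filter, and leaving out 1 library gave 3 to 5 lower and 2 to 4 higher, where Itgae passed the filter and the test without Treg KO replicate 1. With all libraries, Itgae reached the cutoff of the filter in Treg WT libraries only. The filter therefore favours a call of Itgae as higher, and such a call adds no weight. Genes higher in Treg than in CD8 (2) were 4 with T cell scaling, 1 to 3 without 1 library, and 1 with total count scaling, a minimum count of 30, DESeq2, a fold change over 1.5, only the libraries compared, pairs summed and the replicate block. The replicate block left the counts of Treg against CD4 at 2 higher and 5 lower, and numbers did not pair the samples. Of CD8 against CD4, 1 gene was higher with a minimum count of 30 or a fold change over 1.5 and 1 lower with that minimum (2 each otherwise). KO against WT in CD8 gave 1 higher (Swap70) and 1 lower (Ikzf2) without a filter in place of 0, and 0 to 1 higher without 1 library (Swap70 without CD8 WT replicate 3). The CD4 minus CD8 genotype difference gave 2 lower with T cell scaling (Swap70 and Capg), 1 without a filter or with DESeq2 (Swap70), and 0 to 1 without 1 library. Capg reversed with T cell scaling, to 0.0078 against CD4 and 0.0219 against CD8. The cause of these changes was not tested, apart from genes that a stricter filter removes. Without a filter Itgae was higher in Treg than in CD4 (log2 fold change 1.99, adjusted p = 0.000963 by edgeR) and Foxp3 was not called. With pseudocounts of 0.5 or 2 the exact permutation p was 0.00433 for Itgae and 0.513 or 0.351 for Foxp3. Depth limits Foxp3, Itgae, Gpr83 and Lrrc32, which lay near 3 counts a library in Treg.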
